A study of Mus musculus with 10 samples.

Results

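The genes described here are 9 genes of polyamine metabolism in mouse skeletal muscle, out of 39179 gene identifiers counted in each library: Odc1, Amd1, Srm and Sms, which encode the enzymes of synthesis, Smox and Sat1, which encode enzymes of back-conversion, and Oaz1, Oaz2 and Azin1, which encode the antizymes and the antizyme inhibitor. They were chosen by symbol and by no cutoff on their values here, but with earlier results of these data known. RNA was sequenced from the tibialis anterior, a fast muscle of the lower leg, of 4 Control mice and 6 LLC mice, with one library per mouse. LLC mice carried tumours grown from Lewis lung carcinoma cells, a mouse lung cancer line that causes cachexia, injected under the skin of both flanks, and Control mice received PBS alone at the same sites. The sample labels give the strain as C57BL/6J, an age of 10 weeks at injection and 23 days of tumour growth, whereas the description of the series gives C57BL/10 males, 8 weeks and 22 days, and this conflict could not be settled here. The study states that the sequenced mice were picked at random and that the 6 LLC mice lived to the end of the experiment. The group thus holds survivors only, though not necessarily all of them.

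Polyamines are small positively charged molecules that bind RNA and are needed for translation and growth. Ornithine decarboxylase (Odc1) makes putrescine, and S-adenosylmethionine decarboxylase (Amd1) makes the aminopropyl donor that spermidine synthase (Srm) and spermine synthase (Sms) add to it. Spermine oxidase (Smox) turns spermine back into spermidine, and spermidine/spermine acetyltransferase (Sat1) starts the other route back. Antizymes (Oaz1, Oaz2) bind ornithine decarboxylase and send it to the proteasome, and the antizyme inhibitor (Azin1) binds antizymes in its place. Loss of Smox is a known feature of muscle atrophy.

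Libraries held 16693209 to 21303084 counts, so that 3 counts equalled 0.141 to 0.180 CPM (read counts scaled to library size). All 9 genes passed the filter on low counts, with 71 counts or more in each library. CPM values below are scaled by edgeR's trimmed mean of M-values. LLC 1 stood apart from the other LLC libraries: the chi-square per degree of freedom of its counts against each of them was 111 to 181, against 3.71 to 8.11 between Control libraries, and LLC 5 was the next most distant. Markers of muscle fibres were at 130089 to 139222 summed CPM in Control and 91642 to 143516 in LLC, with the lowest value in LLC 1, and 0 of the 8 passed the test. No listed marker was at 0 in all libraries. All 7 of the 9 neutrophil markers that could be tested were higher in LLC, from 1.06–2.67 summed CPM in Control to 32.6–71.9 in LLC, and 5 of 6 markers of fibro-adipogenic progenitors were lower while 1 was higher. The summed CPM ranged from 13.6 to 20.1 and from 9.09 to 14.97 for macrophage markers (1 of 6 lower), from 229 to 305 and from 227 to 253 for endothelial markers (1 of 5 lower), from 4.11 to 4.79 and from 2.61 to 3.63 for satellite cell markers (2 of 3 lower), from 4.77 to 20.4 and from 5.25 to 13.4 for adipocyte markers (0 of 3 called), and from 58.8 to 83.4 and from 88.7 to 144 for erythroid markers (3 of 5 higher), in Control and LLC respectively. The part of these cell types in the values below was not tested.

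Smox gave the largest difference of the 9 genes. Its level in LLC was 43.3% of the Control mean over the 6 mice and no LLC mouse reached the Control range, but the spread among LLC mice was wide and the difference did not pass the test across all genes. Amd1 was low in the same 2 LLC mice in which Smox was lowest and close to Control in most others. The antizyme genes Oaz1 and Oaz2 lay between 93.8% and 109% of the Control mean in the LLC mice other than LLC 1. Of the synthesis genes, Odc1, Srm and Sms had higher fitted levels in LLC, none past the threshold.

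Counted over the list, 0 of the 9 genes passed the threshold of an adjusted p of 0.05 and a 1.5-fold difference in edgeR's quasi-likelihood test, beside 5.63% of the 12690 genes tested, 3.99% lower and 1.65% higher in LLC. At an unadjusted p of 0.05 and any size, 2 of 9 (Smox and Azin1) were below the limit, against 27.4% of all genes. Control and LLC values did not overlap for 1 of 9 (Smox), against 16% of all genes. Smox was the 1 gene of the 9 called by the DESeq2 Wald test, beside 8.29% of all genes, and by limma voom with sample quality weights, beside 7.86%. With LLC 1 left out, edgeR also called Smox, beside 7.68% of all genes, and with LLC 1 and LLC 5 both left out it did so again, beside 6.93%. The median log2 fold change of the 9 genes was -0.09, against 0.00 over all genes tested, and 4 of the 9 were higher and 5 lower.

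**Figure D1:**
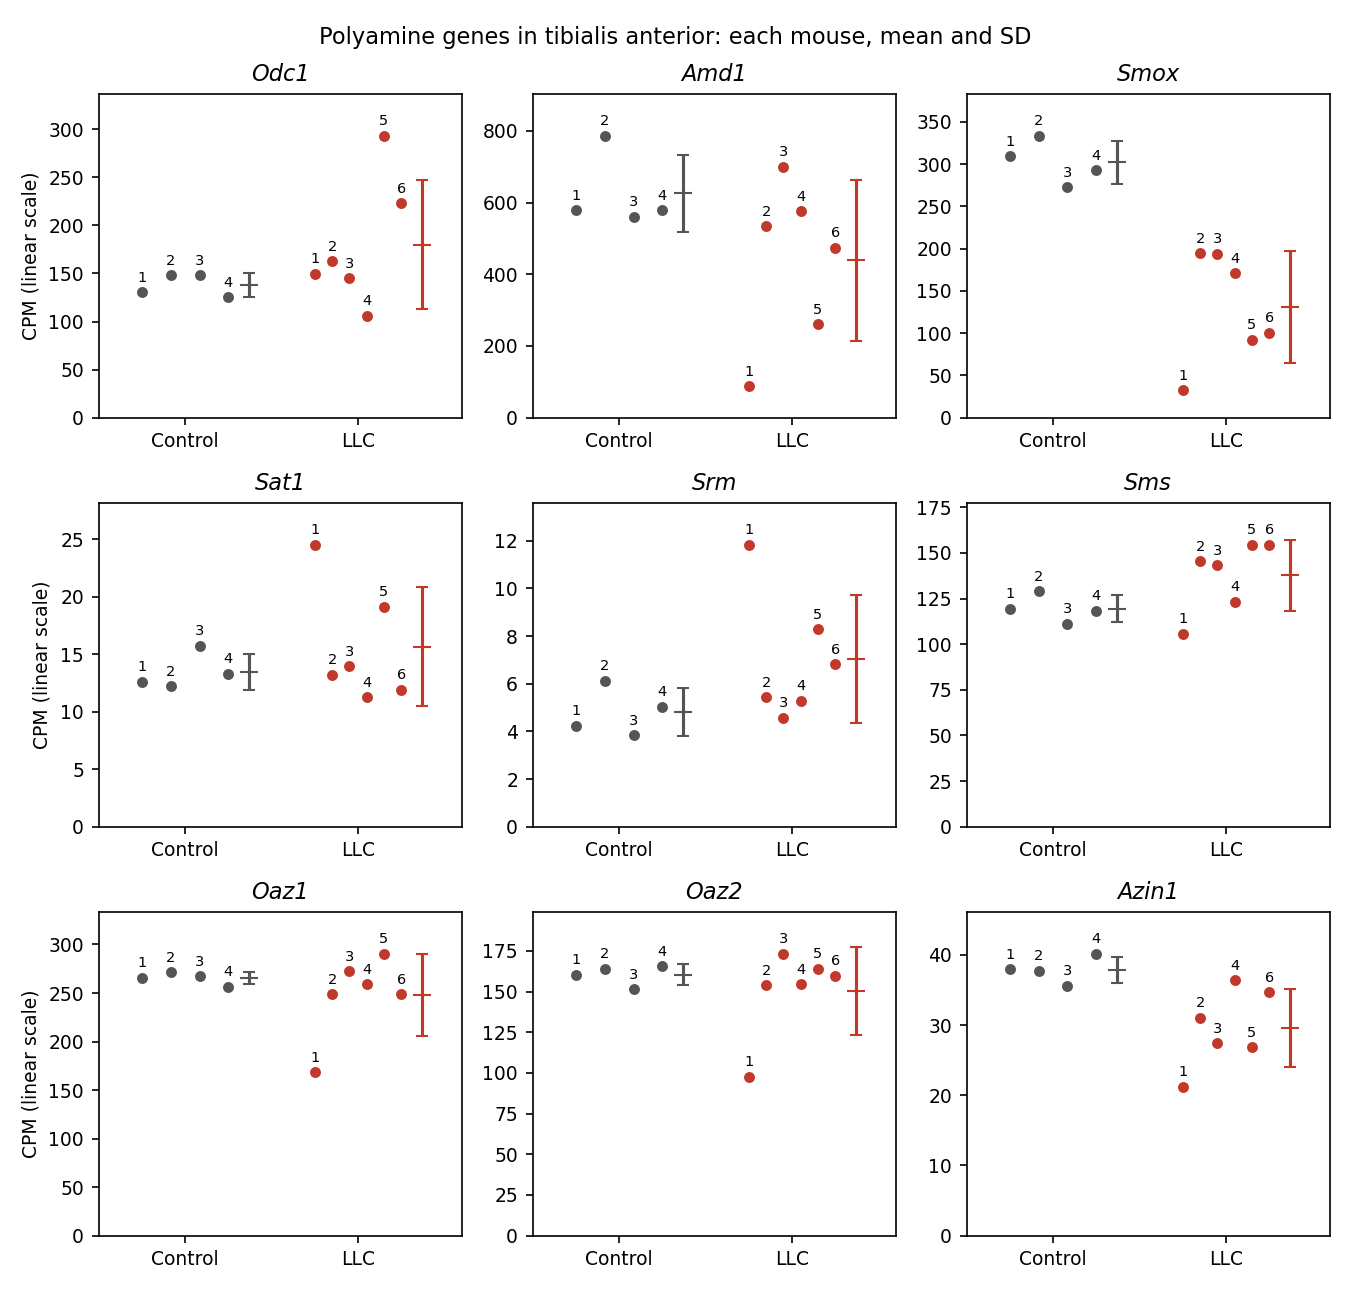
Level of each of the 9 genes in CPM (linear axis from 0) in 4 Control and 6 LLC mice; each point is 1 mouse with its replicate number, and the bar at the right of each group is the mean with the SD. For Smox all 6 LLC mice lie below the lowest Control mouse, and in 8 of the 9 panels LLC 1 is the lowest or the highest LLC mouse.

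Smox (ENSMUSG00000027333) lies on the plus strand at chr2:131491496-131525922 of mm10. Its levels were 309, 334, 273 and 293 CPM in Control 1 to 4. In LLC 1 to 6 they were 32.4, 195, 194, 171, 92.5 and 101 CPM. Every LLC mouse was below the lowest Control mouse, and the LLC mice ran from 10.7% of the Control mean in LLC 1 to 64.5% in LLC 2. The means with SD were 302 ± 25.8 CPM over 4 Control mice and 131 ± 65.95 CPM over 6 LLC mice. The fitted difference was -1.21 ± 0.38 (SE) on the log2 scale, with a 95% interval from -2.03 to -0.39, an unadjusted p of 0.00769 and an adjusted p of 0.0770 by edgeR's quasi-likelihood test. The DESeq2 Wald test gave an adjusted p of 0.0202 for nearly the same log2 fold change, -1.20 ± 0.38. In bulk muscle, fewer cells of a type and less RNA per cell cannot be told apart.

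LLC 1 was the mouse with the lowest Smox, and leaving it out made the fitted difference smaller and its error smaller still. Over the remaining 5 LLC mice the mean was 151 ± 50.3 CPM (SD), 49.8% of the Control mean. The fitted value was then -0.999 ± 0.21 (SE) and passed the threshold (adjusted p = 0.00895, edgeR's quasi-likelihood test). Without LLC 1 and LLC 5, a choice made after seeing the data, it was -0.88 ± 0.16 with an adjusted p of 0.00319. Leaving out any other single mouse gave values from -1.35 to -1.12, none past the threshold. The share of counts from mitochondrially encoded genes was 28.4% to 30.7% in Control. In LLC it was lowest in LLC 1 (22.0%), then LLC 5 (22.9%), LLC 6 (25.8%), LLC 4 (27.0%), LLC 3 (27.8%) and LLC 2 (27.9%). This was the order of Smox among LLC mice. The order did not hold among Control mice, where Control 2, the highest in Smox, had the lowest share (28.4%). With the mitochondrial genes taken out of the table, the log2 fold change of Smox was again -1.21 (adjusted p = 0.0775, edgeR's quasi-likelihood test).

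A stretch before the RefSeq start site of Smox is shown because Smox was the one gene without overlap between groups, beside that of Amd1, the gene that shared its order at the low end. RefSeq windows of 250 bases before the start site were at hand for 7 of the 9 genes, 8 windows in all with a pair for Sms, and not for Srm and Azin1. Capitals mark GC boxes, the letters GGGCGG on either strand, which Sp-family factors are known to bind. The Smox stretch of 110 bases, chr2:131491654-131491763 on the plus strand of GRCm38.p6, is the longest part of its window that lies in no annotated Smox exon. It lies inside the GENCODE span of the gene, which begins further upstream at the first exon of another transcript model, so it is intronic in that model. The Amd1 stretch is its whole window, chr10:40302189-40302438 on the minus strand, printed 5′ to 3′.
Smox: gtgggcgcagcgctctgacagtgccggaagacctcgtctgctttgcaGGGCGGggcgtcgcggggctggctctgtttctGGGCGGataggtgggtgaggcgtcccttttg
Amd1: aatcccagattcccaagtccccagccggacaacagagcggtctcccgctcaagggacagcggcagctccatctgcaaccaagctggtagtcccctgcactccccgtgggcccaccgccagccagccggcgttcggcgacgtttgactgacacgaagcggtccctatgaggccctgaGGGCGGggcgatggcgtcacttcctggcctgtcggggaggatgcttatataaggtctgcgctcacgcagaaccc

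The whole Smox window held 6 GC boxes and the Amd1 window 1. A GC box occurred in 6 of the 8 windows, all but that of Oaz1 and the more upstream one of Sms, and in 32.7% of the 32851 windows of all genes. The letters CACGTG, the E-box that Myc and related factors are known to bind, occurred in 1 of the 8 (the more upstream one of Sms) and in 6.02% of all windows. An NF-kB motif occurred in 2 of the 8 (Oaz1 and the other Sms window) and in 3.90% of all. Neither the FoxO letters GTAAACA (3.17% of all windows), the AP-1 letters TGANTCA (6.75%), the STAT letters TTCCNGGAA (0.913%), the myogenic E-box CAGCTG (13.0%) nor TATAAA (12.4%) occurred in any of the 8 windows. Both strands were searched, no hits of different motifs overlapped in these windows, and a match is a description of the letters only.

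Amd1 (ENSMUSG00000075232, chr10:40287458-40302186, minus strand) makes the donor for both aminopropyl transfers. It was at 579, 787, 561 and 579 CPM in Control 1 to 4. In LLC 1 to 6 it was at 88.3, 533, 700, 576, 260 and 475 CPM. LLC 1, at 14.1% of the Control mean, and LLC 5, at 41.6%, were far below the Control range, whereas LLC 3 and LLC 4 lay within it and LLC 2 and LLC 6 below it. The means with SD were 626 ± 107 CPM (4 Control mice) and 439 ± 225 CPM (6 LLC mice), and the highest LLC mouse was 7.93 times the lowest. The log2 fold change of -0.51 ± 0.42 (SE), with a 95% interval from -1.42 to 0.39, did not pass (adjusted p = 0.427, edgeR's quasi-likelihood test). Without LLC 1 it was -0.29 ± 0.22, and without LLC 1 and LLC 5 -0.14 ± 0.12. Reads of Amd1 can be shared with Amd2 and 3 pseudogenes, which together held 1.16% to 2.05% of the counts of Amd1. Counts of such copies, here and for the genes below, do not show how many reads were shared.

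Translation of the Amd1 mRNA is known to be held back by polyamines through a short reading frame upstream of the main one, a step that RNA counts do not measure. This frame is shown in the transcript Amd1-201, at chr10:40302155-40302175 of mm10 on the minus strand, with its start and stop codons in capitals. It has 6 codons before the stop and ends 296 bases before the main start codon.
Amd1 upstream frame: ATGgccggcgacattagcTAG

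Odc1 (ENSMUSG00000011179, chr12:17544794-17551505, plus strand), the first enzyme of the pathway, was at 130, 148, 148 and 125 CPM in Control 1 to 4. In LLC 1 to 6 it was at 150, 163, 145, 106, 293 and 223 CPM. LLC 5 and LLC 6 were well above the Control range, at 212% and 162% of the Control mean, and LLC 4 was below it. The means were 138 ± 12.1 CPM (SD, n = 4) and 180 ± 67.2 (SD, n = 6). The fitted difference of 0.38 ± 0.24 (SE, log2 scale), 95% interval -0.13 to 0.90, did not pass (adjusted p = 0.300 by edgeR's quasi-likelihood test). Here LLC 5 carried more of the difference than LLC 1: without LLC 5 the value was 0.19 ± 0.18, and without LLC 1 it was 0.44 ± 0.23.

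The other synthesis genes were higher on average in LLC. Srm (ENSMUSG00000006442, chr4:148591503-148594993, plus strand) was the least abundant of the 9 genes, at 4.24, 6.12, 3.84 and 5.04 CPM in Control and 11.8, 5.42, 4.58, 5.29, 8.28 and 6.82 CPM in LLC 1 to 6. LLC 1, LLC 5 and LLC 6 were above the Control range, the same 3 mice in which Smox was lowest. Its log2 fold change was 0.55 ± 0.26 (SE), 95% interval -0.02 to 1.12 (adjusted p = 0.194, edgeR's quasi-likelihood test), then 0.35 ± 0.19 without LLC 1 and 0.19 ± 0.16 without LLC 1 and LLC 5. Sms (ENSMUSG00000071708, chrX:157443855-157492287, minus strand) was at 119, 129, 111 and 118 CPM in Control and 106, 145, 143, 123, 154 and 154 CPM in LLC. Its levels were above the Control range in 4 of the 6 LLC mice and below it in LLC 1. For Sms the fitted difference was 0.21 ± 0.12 (SE), 95% interval -0.05 to 0.46 (adjusted p = 0.258, edgeR's quasi-likelihood test). Without LLC 1 it was 0.28 ± 0.08 with an adjusted p of 0.0385 by the same test, a difference under 1.5-fold, and the pseudogene Sms-ps held 3.80% to 5.44% as many counts as Sms.

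**Figure D2:**
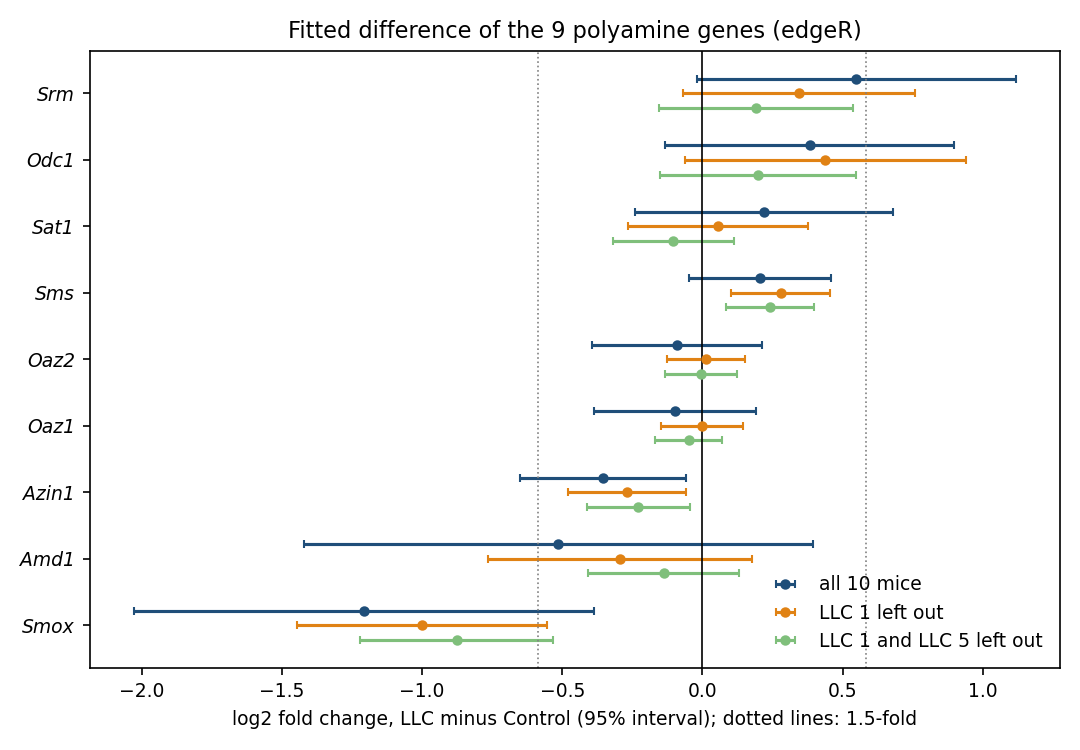
Fitted log2 fold change (LLC minus Control, x axis) of each gene with its 95% interval from edgeR, with all 10 mice, with LLC 1 left out and with LLC 1 and LLC 5 left out; dotted lines mark 1.5-fold. For Smox the 3 values are -1.21, -0.999 and -0.88 and none of the intervals reaches 0, and for Amd1 they go from -0.51 to -0.14 with intervals that include 0.

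Sat1 (ENSMUSG00000025283, chrX:155213132-155216449, minus strand), which acetylates spermidine and spermine, was far less abundant than Smox. Its levels were 12.6, 12.2, 15.7 and 13.3 CPM in Control and 24.5, 13.2, 13.96, 11.3, 19.1 and 11.9 CPM in LLC 1 to 6. LLC 1 and LLC 5 were above the Control range, and the other LLC mice lay in it or below it. The log2 fold change of 0.22 ± 0.21 (SE), 95% interval -0.24 to 0.68, did not pass (adjusted p = 0.505, edgeR's quasi-likelihood test). The sign rested on those 2 mice: it was 0.06 ± 0.15 without LLC 1, -0.10 ± 0.10 without both, and -0.03 with limma voom. Per kilobase of exon, the ratio of Smox to Sat1 was 16.2 ± 3.00 over the 4 Control mice and 6.93 ± 4.13 over the 6 LLC mice (SD). In LLC 1 the ratio was 0.942. Smox still had more counts than Sat1 in that library (631 against 477), so their order there depended on the exon lengths used.

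The antizyme genes differed least. Oaz1 (ENSMUSG00000035242, chr10:80826656-80829290, plus strand) was at 266, 271, 267 and 257 CPM in Control and at 168, 249, 272, 259, 290 and 249 CPM in LLC 1 to 6. Oaz2 (ENSMUSG00000040652, chr9:65668001-65690300, plus strand) was at 160, 164, 151 and 165 CPM in Control and at 97.5, 154, 173, 154, 164 and 160 CPM in LLC 1 to 6. For each of them LLC 1 was far below all other mice, at 63.4% and 60.8% of the Control mean. The log2 fold changes were -0.10 ± 0.13 (95% interval -0.39 to 0.19) for Oaz1 and -0.09 ± 0.14 (-0.40 to 0.21) for Oaz2. Without LLC 1 the 95% intervals narrowed to -0.15 to 0.15 for Oaz1 and -0.13 to 0.15 for Oaz2, all within 1.5-fold. Pseudogenes held at most 0.512% of the counts of Oaz1 and 0.359% of those of Oaz2.

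Full-length antizyme is made only when the ribosome shifts frame by one base at an in-frame stop codon, a step that polyamines are known to promote and that RNA counts do not measure. The site is shown for both genes, 30 bases in mm10 on the plus strand, with the last codon before the stop and the TGA stop in capitals. It lies at chr10:80828280-80828309 in Oaz1, after 68 codons of the transcript model Oaz1-207, and at chr9:65686257-65686286 in Oaz2, after 32 codons of Oaz2-206.
Oaz1: cctcggtggtgcTCCTGAtgtccctcaccc
Oaz2: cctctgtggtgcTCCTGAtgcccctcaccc

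Azin1 (ENSMUSG00000037458, chr15:38487427-38519266, minus strand), which releases ornithine decarboxylase from antizyme, was the second gene with an unadjusted p below 0.05. It was at 37.9, 37.7, 35.6 and 40.2 CPM in Control and at 21.2, 31.1, 27.4, 36.4, 26.8 and 34.7 CPM in LLC 1 to 6. All LLC mice but LLC 4 were below the Control range, with LLC 1 lowest at 56.1% of the Control mean. The means were 37.8 ± 1.87 CPM (SD, n = 4) and 29.6 ± 5.60 (SD, n = 6). Its fitted log2 fold change was -0.35 ± 0.14 (SE), 95% interval -0.65 to -0.06 (unadjusted p = 0.0234, adjusted p = 0.128, edgeR's quasi-likelihood test), and -0.27 ± 0.10 without LLC 1 (adjusted p = 0.0836, same test). With limma voom the adjusted p was 0.0358 at a log2 fold change of -0.27, under 1.5-fold. The gene overlaps an antisense transcript over 358 of its 6256 exonic bases. The study's methods give the default settings of HTSeq, which count by strand. Whether that setting matched the stranded kit is not stated, so it is not known if reads of this transcript were kept out.

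Levels of different genes were compared per kilobase of exon, as CPM divided by the union of annotated exon lengths. In Control the order was Amd1 (177 ± 30.2, SD, n = 4), Oaz1 (104 ± 2.41), Smox (77.6 ± 6.61), Oaz2 (53.6 ± 2.12), Odc1 (40.5 ± 3.56), Sms (19.9 ± 1.21), Azin1 (6.05 ± 0.299), Sat1 (4.86 ± 0.566) and Srm (3.01 ± 0.630). For 0 of the 8 neighbours in this order did the Control mice overlap. In LLC the order of the means was Amd1, Oaz1, Odc1, Oaz2, Smox, Sms, Sat1, Azin1 and Srm, so that Smox moved from place 3 to place 5 and Odc1 from 5 to 3. For 7 of the 8 neighbours in that order the LLC mice overlapped, all but Sms and Sat1. The order in LLC is therefore not separated by the spread between mice for those 7 pairs.

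**Figure D3:**
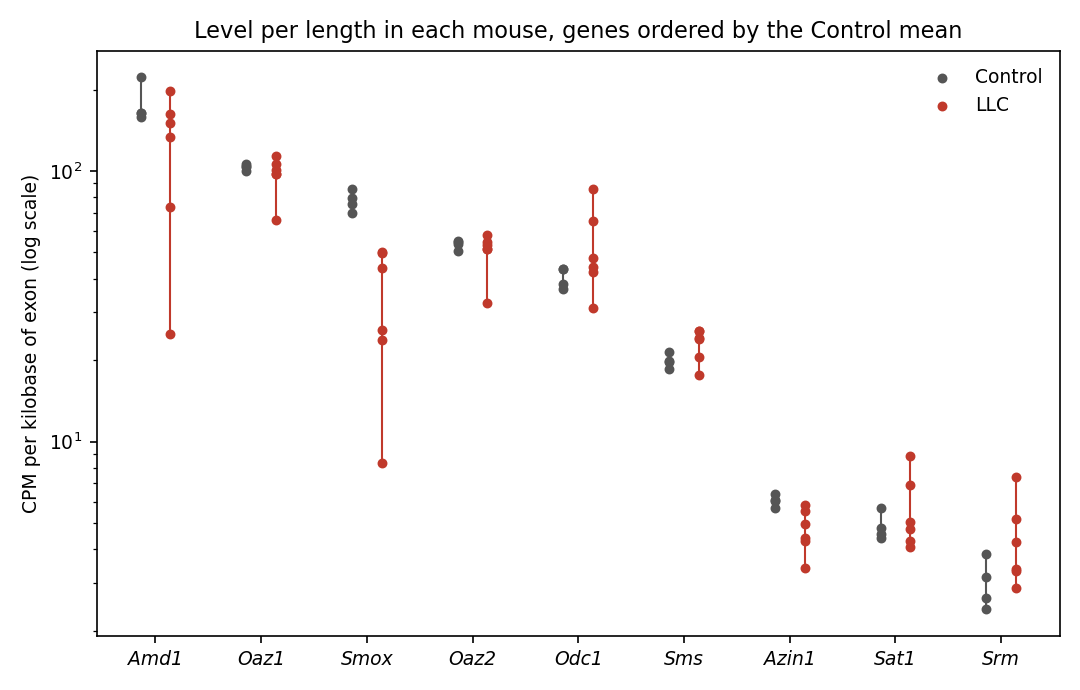
Level of each gene in CPM per kilobase of exon (log axis) in each Control and LLC mouse, with lines from the lowest to the highest mouse of a group and genes ordered by the Control mean. Neighbouring genes do not overlap among Control mice, whereas 7 of 8 neighbours in the LLC order do among LLC mice.

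Ratios between the genes moved with them, given here per kilobase of exon as descriptions. The ratio of Amd1 to Odc1 was 4.36 on average in Control, where it ran from 3.64 to 5.09. In LLC it averaged 2.75, with 0.567 in LLC 1 and 0.854 in LLC 5, so that in these mice Odc1 was the more abundant. The ratio of Odc1 to Oaz1 was 0.391 ± 0.027 over the 4 Control mice and 0.550 ± 0.178 over the 6 LLC mice (SD). It was above the Control range in LLC 1, LLC 2, LLC 5 and LLC 6, for which it was 0.669, 0.492, 0.758 and 0.674, and below it in LLC 4, at 0.307. The ratio of Odc1 to Azin1 was 6.73 ± 0.875 in Control and 11.6 ± 4.91 in LLC, with 20.1 in LLC 5. Srm was 13.0% to 17.9% of Sms in Control and 42.0% in LLC 1, but 11.997% to 20.1% in the other 5 LLC mice.

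The spread between mice was wider in LLC for all 9 genes, by the SD of log2 CPM, as it was for 85.1% of all genes tested. The coefficient of variation was 51.2% for Amd1 and 50.4% for Smox in LLC, against 17.1% and 8.53% in Control. It was 37.4% for Odc1, 38.3% for Srm and 32.9% for Sat1, and lowest for Sms, at 14.1%. LLC 1 was the lowest LLC mouse for 6 of the genes (Smox, Amd1, Sms, Oaz1, Oaz2 and Azin1) and the highest for 2 (Sat1 and Srm), an extreme position that it held for 66.1% of all genes.

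As a reference for the order of the LLC mice, the ubiquitin ligase genes Fbxo32 (atrogin-1) and Trim63 (MuRF1) were set beside the 9 genes. Fbxo32 was at 269 to 385 CPM in Control, and at 3630, 1756, 1001, 865, 788 and 517 CPM in LLC 1, 5, 6, 2, 3 and 4. Trim63 had the same order of LLC mice, from 2529 CPM in LLC 1 to 211 in LLC 4, against 157 to 195 in Control. Smox and Amd1 were lowest in the 3 mice highest in both ligases, in the order LLC 1, LLC 5 and LLC 6. Among the other 3 mice the orders differed: LLC 4, lowest in both ligases, had the lowest Smox of the 3. Srm was highest in LLC 1, LLC 5 and LLC 6 in that order. Over all genes these 3 mice also lay furthest from LLC 2, LLC 3 and LLC 4, in the same order. Their chi-square per degree of freedom against those was 158 to 181 for LLC 1. It was 42.0 to 56.4 for LLC 5 and 15.5 to 22.0 for LLC 6. The study likewise placed LLC 2 to LLC 4 in a subgroup nearest to Control. The share of all genes with this order was not counted, so the order is not shown to be particular to these genes.

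**Figure D4:**
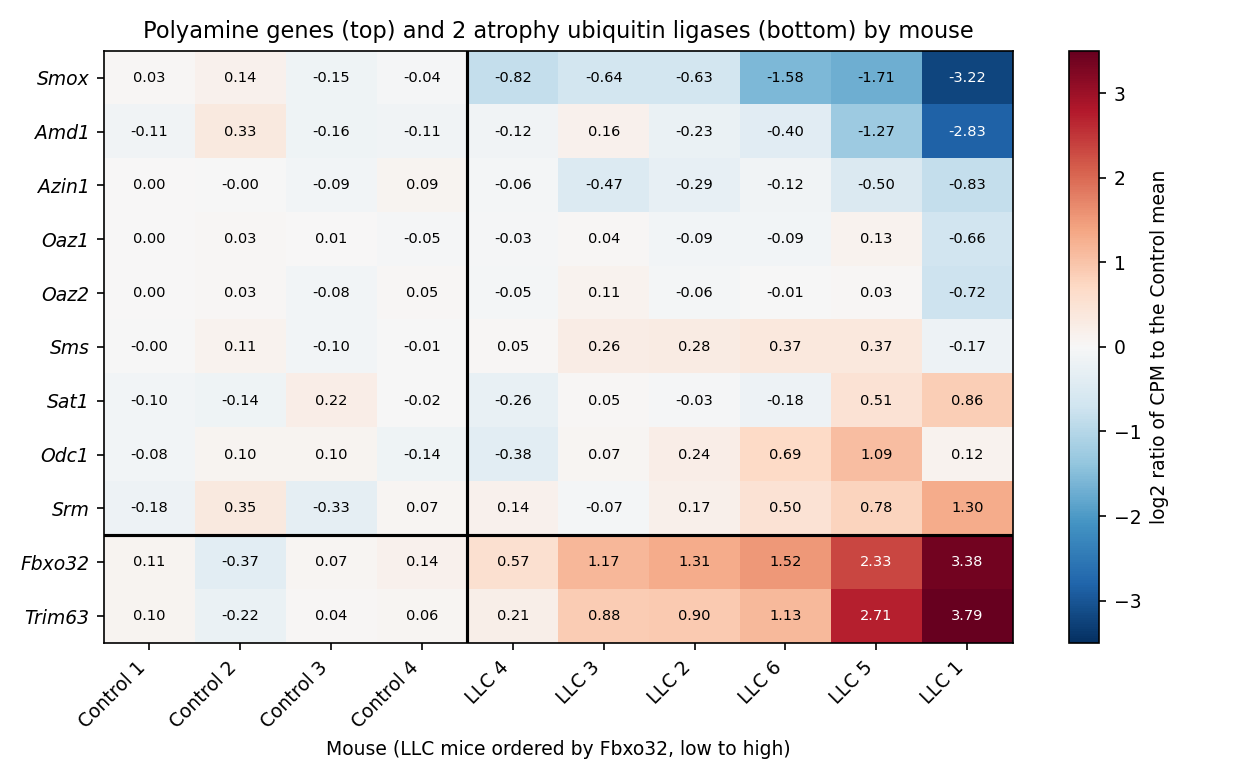
Log2 ratio of CPM to the Control mean (colour and printed value) for the 9 genes and for Fbxo32 and Trim63, by mouse, with LLC mice ordered by Fbxo32. Smox goes to -3.22 and Amd1 to -2.83 in LLC 1, where Fbxo32 is at its highest, while Oaz1 and Oaz2 stay within 0.13 of the Control mean in the other LLC mice.

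Correlations of log2 CPM over the 10 mice describe the same pattern and carry no test, since the mice share the group difference and LLC 1. Amd1 and Smox had a Pearson r of 0.92 over 10 mice, 0.96 over the 6 LLC mice and 0.76 over the 9 mice without LLC 1. Smox and Srm had an r of -0.88, and -0.72 without LLC 1. Oaz1 and Oaz2 had an r of 0.95 with all mice but 0.42 without LLC 1, so this likeness rested mainly on that mouse. Odc1 had weak correlations with Amd1 and Smox over all mice (-0.31 and -0.42) and stronger ones without LLC 1 (-0.78 and -0.75). In LLC 1 Amd1 and Smox were low and Odc1 was at 109% of the Control mean.

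Among 10273 other genes with a mean of at least 1 on the log2 CPM scale, those most like Smox over the 10 mice were Def8, Mief2, Atp5a1, Abcb4 and Sdhd, with r from 0.9923 to 0.9955. Atp5a1 encodes a subunit of mitochondrial ATP synthase, Sdhd a subunit of succinate dehydrogenase and Mief2 a factor of mitochondrial fission. Those most opposite were Impact, Dnajb2, Ube4a, Ddx3x and Arnt, with r from -0.9924 to -0.9886. The fitted log2 fold change of Smox, -1.21, was larger than those of the 5 genes most like it, which ran from -0.56 (Sdhd) to -0.36 (Def8). For Amd1 the most like were Abcb10, Phka1, Pex11a, Trmt2b and Mef2c and the most opposite Nol3, Sidt2, Ddx27, Mafk and Psmc4. Mef2c is a muscle transcription factor, Phka1 the muscle alpha subunit of phosphorylase kinase and Psmc4 a proteasome ATPase. For Odc1 they were Mgat4b, BC002059, 1810009A15Rik, Med11 and Snrpa, and Slc36a1, Tmcc3, Rab6b, Ttc28 and Atp6v0a2. The r of the 10 genes listed for Odc1 was weaker than for Smox, 0.93 to 0.98 and -0.94 to -0.91.

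Another 28 genes around these 9 were followed, from the supply of ornithine and S-adenosylmethionine to spermidine use and transport. Of the 21 that passed the filter on low counts, 1 was past the threshold, higher in LLC, and 0 lower. The share over all genes was 5.63% in either direction. At an unadjusted p of 0.05 and any size, 7 of the 21 were below the limit, against 27.4% of all genes. The other 7 of the list, Arg1, Arg2, Agmat, Satl1, Aoc1, Slc12a8 and Slc22a3, had at most 15 counts in any library and were not tested. Fitted values were positive for 9 and negative for 12, with a median log2 fold change of -0.06.

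The gene past the threshold was Slc3a2, the heavy chain shared by several amino acid transporters that has also been linked to polyamine export. It was at 21.8, 18.6, 21.04 and 20.7 CPM in Control and at 40.9, 26.5, 27.9, 27.9, 39.3 and 28.7 CPM in LLC 1 to 6, with every LLC mouse above every Control mouse. Its log2 fold change was 0.63 ± 0.14 (SE; adjusted p = 0.0221, edgeR's quasi-likelihood test). The size was near the 1.5-fold limit, a log2 value of 0.58, and was below it without LLC 1 (0.56), without LLC 5 (0.57) and with limma voom (0.46). Without any one Control mouse the adjusted p was 0.0583 to 0.0770 in edgeR's quasi-likelihood test.

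Besides Slc3a2, the groups did not overlap for Oat and Azin2, 3 of the 21 in all, beside 16% of all genes. Oat, the mitochondrial ornithine aminotransferase, was the one tested gene of the group listed here under ornithine supply. RNA counts do not show whether the enzyme made or used ornithine. Oat was at 153 to 170 CPM in Control and 178 to 281 in LLC. Its log2 fold change was 0.43 ± 0.13 (adjusted p = 0.0730, edgeR's quasi-likelihood test). Azin2, a second antizyme inhibitor gene, named here after its values were seen, was at 3.07 to 3.41 CPM in Control and 1.13 to 2.67 in LLC, with a log2 fold change of -0.53 ± 0.20 (adjusted p = 0.119, edgeR's quasi-likelihood test). Its direction was that of Azin1.

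In each role group the gene with the largest fitted difference was below the threshold. In the transport group, which also holds Slc3a2, Atp13a3, a polyamine transporter of the P5B ATPase family, had a log2 fold change of 0.68 ± 0.23 (adjusted p = 0.0939, edgeR's quasi-likelihood test), with 68.2 CPM in LLC 1 against 22.7 to 25.8 in Control and 25.3 in LLC 5. Oaz3, an antizyme gene known from testis, was at 2 to 13 counts a library and overlaps Tdrkh on the other strand over 2255 of 4326 exonic bases, so its value of 1.13 ± 0.38 is uncertain (adjusted p = 0.0962, edgeR's quasi-likelihood test). Eif5a2, a target of the hypusine modification that spermidine feeds, was at 10 to 30 counts a library, with -0.67 ± 0.28 (adjusted p = 0.152, edgeR's quasi-likelihood test). With LLC 1 left out, Oaz3 and Eif5a2 were past the threshold, at 1.31 and -0.88. Sat2, a relative of Sat1, had -0.58 ± 0.21 and Mat2a, an S-adenosylmethionine synthetase, -0.22 ± 0.12, with adjusted p-values of 0.116 and 0.255 in edgeR's quasi-likelihood test. Eif5a, the abundant hypusine target, was at 228 to 249 CPM in Control and 223 to 292 in LLC, a log2 fold change of 0.05 ± 0.10.

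**Figure D5:**
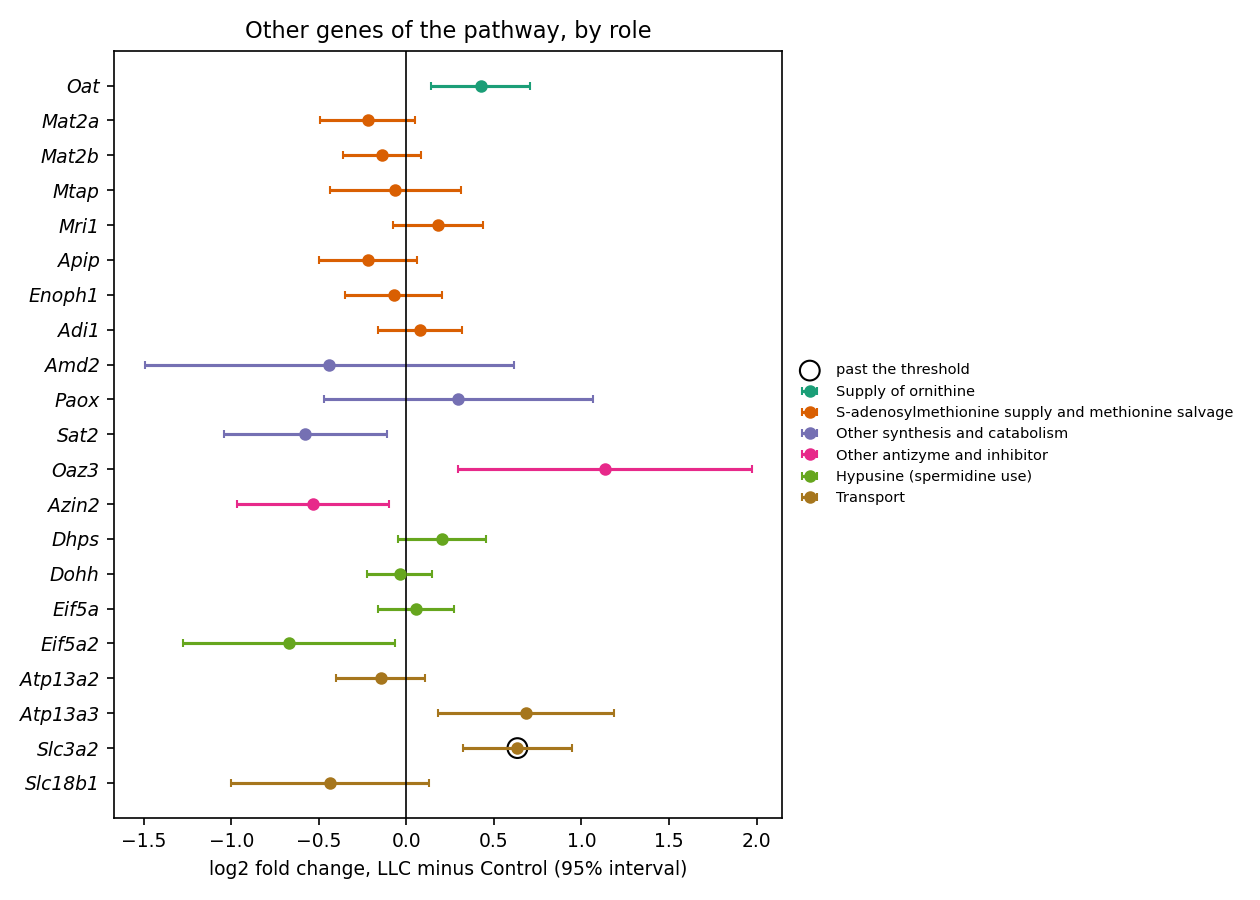
Fitted log2 fold change (LLC minus Control, x axis) with its 95% interval from edgeR for the 21 other genes of the pathway that were tested, coloured by role; the open circle marks the 1 gene past the threshold, Slc3a2, at 0.63. The widest intervals are those of Amd2, Oaz3 and Paox.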

How the data were processed

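Total RNA of the tibialis anterior was made into libraries with a TruSeq stranded kit and sequenced as 100-base pairs. The deposited files hold raw counts per Ensembl gene for each mouse, which the authors made with TopHat and HTSeq on mm10. The methods name RefSeq genes, whereas the files list Ensembl identifiers, and the annotation release behind these is not given in the sources used here. They also name default HTSeq settings, which count by strand, but not whether the strand setting matched the stranded kit. Identifiers were joined to GENCODE M21 symbols (37607 of 39179 matched), and no columns were left unused. Genes were filtered with filterByExpr (minimum count 10), scaled by TMM and tested for LLC against Control with edgeR 4.0.16 (glmQLFit, glmQLFTest, R 4.3.3), with Benjamini-Hochberg adjustment over all 12690 genes; the threshold was an adjusted p of 0.05 and 1.5-fold. SE is the log2 fold change over the root of F, and a prior count of 2 was added for log2 CPM. DESeq2 1.42.0 and limma 3.58.1 (voom) were alternatives, and scripts were tested on simulated data. Named genes are all 9 members, of the wider pathway those past the threshold and the largest difference in each role group, and for Smox, Odc1 and Amd1 the 5 genes with the highest and lowest r. The 9 genes, the lists and the tests were chosen with earlier results of these data known. Labels name each library as a separate mouse, so p-values measure the spread between mice. For genes with few counts, such as Srm (71 to 230 a library) and Oaz3 (2 to 13), counting error is part of that spread. Promoter windows are from RefSeq (GRCm38.p6), transcript sites from GENCODE M21.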

Additional observations from a re-analysis of the deposited data

Results flagged for a closer look

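Levels were examined for a mouse far from the rest in 18 groups (9 genes in Control and in LLC), by the gap to the nearest mouse as a share of the range of the group. This was found in 3 of the 18, against 0.9 at 1 in 20 if the groups were independent. They were not, since all 9 genes were read in the same mice, so the 0.9 is a rough guide only. LLC 1 was the lowest or highest LLC mouse for 66.1% of all genes. For Amd1 in Control, Control 2 was highest with a gap ratio of 0.917 (787 CPM against 561 to 579 in the other 3). For Oaz1 and Oaz2 in LLC, LLC 1 was lowest, with gap ratios of 0.660 and 0.746. The low values of Smox and Amd1 in LLC 1 did not meet the limit.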

How the results depend on the processing

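The count of polyamine genes past the threshold was 0, and stayed 0 with median-of-ratios or upper-quartile factors, without mitochondrial genes, with other low-count filters and with robust dispersion. It was 1 (Smox) with DESeq2, with voom, at an unadjusted p with 1.5-fold, and with LLC 1 and LLC 5 left out together, and ranged from 0 to 1 (without LLC 1) when single mice were left out. Over all genes, 715 calls became 475 when 10 counts were required in every sample and 1572 at an unadjusted p, and ranged from 409 (without Control 4) to 974 (without LLC 1). For the wider pathway, the 1 call (Slc3a2) became 2 with DESeq2 (Slc3a2 and Atp13a3). It became 2 with voom and 2 without LLC 1 and LLC 5, in both cases Oaz3 and Eif5a2 and not Slc3a2. The count was 4 at an unadjusted p, and 0 to 2 with single mice left out. Why these counts moved was not tested, and some of the settings also held fewer mice or genes. Fitted signs changed for Sat1, to -0.0302 with voom and -0.103 without LLC 1 and LLC 5, and for Oaz2, which ranged from -0.14 to 0.0133 (without LLC 1) with single mice left out. Control and LLC mice that share a number are different animals, and their deviations had correlations of -0.08 to 0.13, so the numbers do not pair them. With the replicate block over replicates 1 to 4, 112 genes were called in all, with 0 polyamine and 0 wider pathway genes, against 313, 0 and 0 in the same 8 mice without it.

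Limits: 4 and 6 mice, 1 of them far from its group, 1 muscle and 1 time; RNA counts give no enzyme activity, polyamine level, frameshift or upstream frame use.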
